A study of Homo sapiens with 12 samples.

Results

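Keratins are the intermediate filament proteins of epithelial cells, and 8 of their genes were described here across 2 human endometrial cell lines. The 8 genes, of 58735 in the deposited count matrix, were the type I keratins KRT18, KRT19, KRT15 and KRT17 and the type II keratins KRT7, KRT8, KRT80 and KRT81. They were chosen by symbol as simple and stress keratins. KRT19 was selected on its readout, since it was picked from the genes raised by AG-205 in both lines, so its response to AG-205 is given as a description with no test.

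The 12 libraries fell into 4 groups of 3, made from each line after 32 h of culture, either in AG-205 at 15 µM or in DMSO, its solvent. AG-205 is a small molecule that is sold as a ligand or inhibitor of the heme-binding protein PGRMC1. HEC-1A cells (labelled HEC1A) are an established line of epithelial origin from an endometrial adenocarcinoma, and T-HESC cells (labelled THESC) are an established line of fibroblastic origin, immortalised with telomerase. The labels name no further engineered allele in either line. Each line stands for 1 cancer or 1 immortalised isolate, so a difference between the lines cannot be told apart from a difference between those isolates, and the 3 libraries of a group came from separate cultures of the same line.

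Keratin filaments are built from pairs of 1 type I and 1 type II chain, and a chain without a partner is usually degraded. KRT8 and KRT18 form the basic pair of simple, single-layered epithelia, to which KRT7 and KRT19 are added in glandular and ductal cells such as those lining the endometrium. KRT17 is known as a stress keratin of wounded epidermis and KRT15 as a keratin of basal and hair follicle cells, while KRT80 is linked to cell junctions and KRT81 is a hair keratin.

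The 8 genes lay in the 2 keratin clusters of the human genome (GRCh38). KRT18 (ENSG00000111057, chr12:52948871-52952906, plus strand), KRT8 (ENSG00000170421, chr12:52897187-52949954), KRT7 (ENSG00000135480, chr12:52232520-52252186, plus strand), KRT80 (ENSG00000167767, chr12:52168996-52192014) and KRT81 (ENSG00000205426, chr12:52285913-52291534) were on chromosome 12. KRT19 (ENSG00000171345, chr17:41523617-41528308), KRT15 (ENSG00000171346, chr17:41513745-41522529) and KRT17 (ENSG00000128422, chr17:41619442-41624842) were on chromosome 17, where KRT15 and KRT19 were separated by 1087 bases. Genes given with no strand are on the minus strand. KRT18 is thus the only type I gene of the set that sits in the type II cluster, beside its partner KRT8, and 17.1% of its exon length overlapped exons of KRT8 on the opposite strand.

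How separately each keratin could be counted depended on its sequence. Of the 50-base windows of the canonical transcript, 52.8% for KRT18, 44.6% for KRT81 and 39.2% for KRT8 also occurred, on either strand, in transcripts of other annotated genes, against 18.3% for KRT17, 11.7% for KRT7, 1.79% for KRT19, 1.02% for KRT15 and 0.418% for KRT80. The stretches below are shown because they are where a read could belong to a keratin or to a copy of it. They come from the coding exons of 2 keratins (GRCh38, 5′ to 3′ on the strand of the gene), and the capitals mark bases that are identical in the other gene named.
KRT19 with the pseudogene KRT19P1, exon 6, chr17:41523851-41523925, minus strand: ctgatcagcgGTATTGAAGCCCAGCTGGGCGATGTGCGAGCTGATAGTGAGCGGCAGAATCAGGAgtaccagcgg
KRT18 with the pseudogene KRT18P11, exon 6, chr12:52952248-52952342, plus strand: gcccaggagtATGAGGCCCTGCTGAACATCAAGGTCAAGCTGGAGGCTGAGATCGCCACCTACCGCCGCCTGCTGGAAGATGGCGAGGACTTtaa
The identical run was 55 bases in KRT19 and 82 bases in KRT18.

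The 150 keratin pseudogenes of the annotation together held counts equal to 0.983 to 1.43% of the counts of the 8 keratins in HEC-1A libraries and 2.49 to 3.47% in T-HESC libraries. The copies of KRT8 held 3.18 to 5.1% as many counts as KRT8 itself in HEC-1A libraries but 17.8 to 44.8% in T-HESC libraries, so the KRT8 values of T-HESC cells are the less certain ones. The copies of KRT19 held 0 or 1 count in each library. How reads that fit several places were assigned, and whether strand was used, is not given in the sources used here. For KRT18, KRT8, KRT81 and, at its few counts, KRT17, the division of reads between the gene and the copies or other genes that share its sequence is uncertain. The gene that shared most windows with KRT18 was its neighbour KRT8 (23.9% of the KRT18 windows, counted on either strand).

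The libraries held 7168542 to 12966177 counts in HEC-1A cells and 11440359 to 15178276 in T-HESC cells. Levels are CPM, the counts scaled to a common normalised library total, and levels of different genes were compared only as CPM per kilobase of the canonical transcript. Markers of the labelled cell types were as follows. The 10 epithelial markers summed to 1380 to 1500 CPM in HEC-1A cells with DMSO and to 36.9 to 52.9 CPM in T-HESC cells with DMSO, where EPCAM was at 0.333 ± 0.151 CPM (SD, n = 3). Most of the T-HESC sum came from SPINT1, at 35 ± 4.83 CPM. The 10 stromal fibroblast markers summed to 17700 to 25700 CPM in T-HESC cells with DMSO and to 10.8 to 16.3 CPM in HEC-1A cells with DMSO. In T-HESC cells with AG-205 this stromal sum was spread more widely, at 6320, 12600 and 20700 CPM in replicates 1, 2 and 3. The 5 leukocyte markers summed to at most 2.79 CPM in any library, and the 5 smooth muscle markers to 109 to 275 CPM with DMSO and 65.6 to 149 CPM with AG-205 in T-HESC cells. The 5 endothelial markers summed to 57.8 to 83.9 CPM with DMSO and 38.3 to 90.4 CPM with AG-205 in T-HESC cells, nearly all from TEK, with CDH5 and KDR at 0 with DMSO. In bulk RNA, fewer cells of a type and less RNA per cell cannot be told apart.

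**Figure D1:**
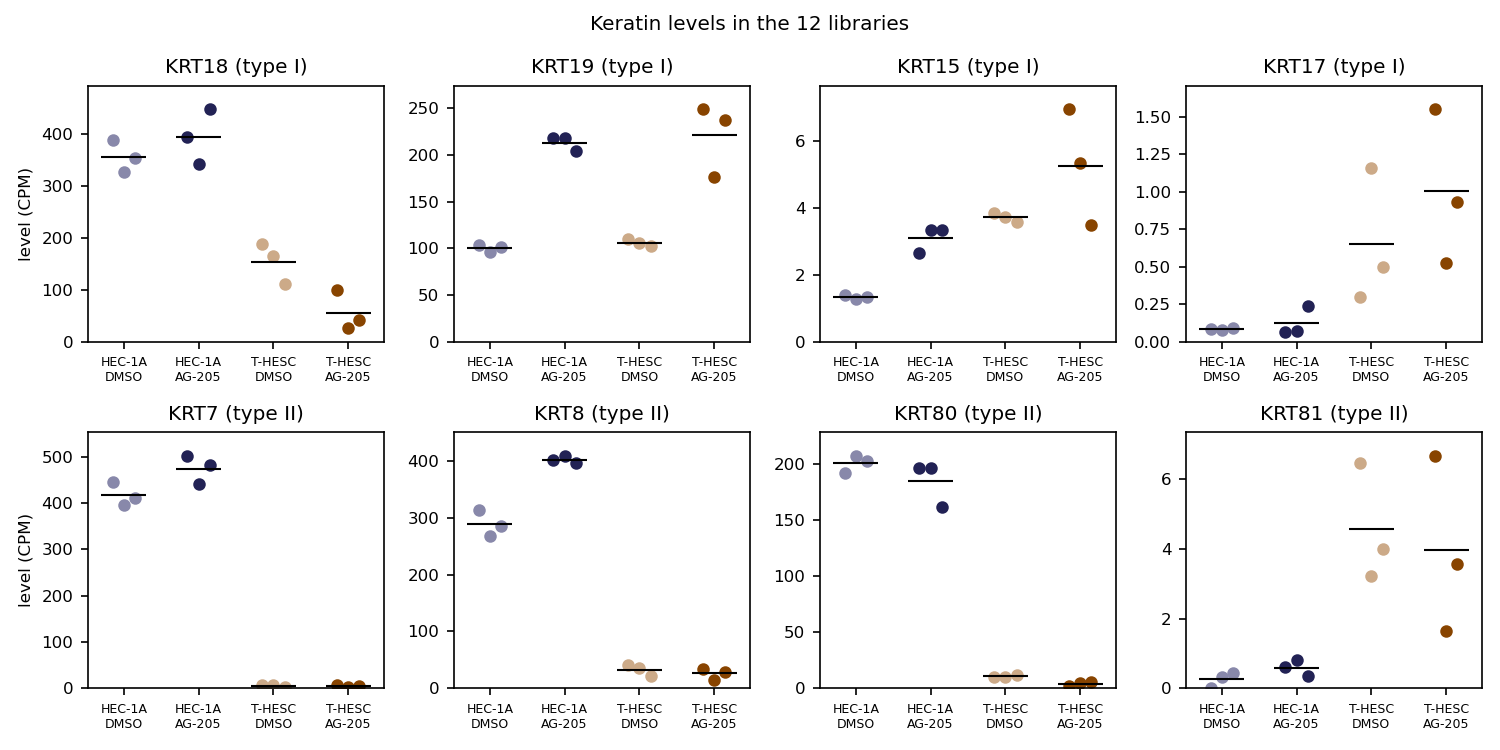
Level of each keratin in CPM (scaled counts, linear axis from 0, a separate scale for each gene) in the 12 libraries, with 1 point per library and a line at the mean of the 3 libraries of a group. KRT19 sits near 100 CPM in both lines with DMSO and at 177 CPM or more in every library with AG-205, while KRT7, KRT8 and KRT80 are far higher in HEC-1A than in T-HESC cells.

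HEC-1A cells with DMSO held a simple epithelial set of keratins. Per kilobase, KRT7 (mean 257 CPM per kb) and KRT18 (253) were highest and their ranges over the 3 libraries overlapped. KRT8 (162), KRT19 (72.2) and KRT80 (51.8) followed, each without overlap with its neighbour in this order. KRT15 was at 0.783 CPM per kb, KRT81 at 0.133 and KRT17 at 0.0553, the last 2 with overlapping ranges. KRT17 had 1 count in each HEC-1A library with DMSO, which is below the floor of 3 counts used here for detection, and KRT81 had 0, 4 and 5 counts.

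In T-HESC cells with DMSO the order was different. KRT18 (mean 110 CPM per kb) and KRT19 (76.4) were highest with overlapping ranges, and KRT8 (18.3) came next without overlap. KRT7 (3.28), KRT80 (2.78), KRT81 (2.37) and KRT15 (2.17) could not be ordered, since the ranges of neighbours overlapped, and KRT17 was lowest at 0.431 CPM per kb. The fibroblastic line therefore held mainly type I keratin RNA.

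AG-205 addition to HEC-1A cells asked how the keratins of epithelial-type cells respond to the compound. KRT19 was higher with AG-205 by description, KRT15 was called higher and KRT8 was higher by less than the fold limit, while KRT18, KRT7 and KRT80 showed no change that passed the test. A gene was called where the edgeR quasi-likelihood test gave a Benjamini-Hochberg adjusted p under 0.05 over all genes tested and the log2 fold change was above 1 or below -1. Of the 7 keratins other than KRT19, 5 had enough counts to be tested, 1 was called higher and 0 were called lower. Over all 14122 genes tested, 2.58% were called higher and 0.205% lower.

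KRT19, the smallest keratin chain and a marker of ductal and glandular epithelium, was at 104, 96.7 and 101 CPM in the 3 HEC-1A libraries with DMSO and at 218, 218 and 204 CPM in those with AG-205. Every library with AG-205 was above every DMSO library. This was a 2.13-fold higher level, or 1.09 on the log2 scale (SE 0.0861, 95% interval 0.90 to 1.28). These are the values the gene was picked by, so the interval describes them and is no support for the effect. The same holds for the log2 fold changes with single libraries left out, which lay between 1.06 and 1.11.

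KRT15, the neighbour of KRT19 on chromosome 17, was far less abundant. It had 17, 16 and 15 counts (1.40, 1.28 and 1.35 CPM) in HEC-1A libraries with DMSO and 39, 45 and 28 counts (2.66, 3.33 and 3.35 CPM) in those with AG-205, with no overlap between the groups. Its log2 fold change was 1.2 (SE 0.243, 95% interval 0.67 to 1.73), or 2.29-fold, with an adjusted p of 0.00757 in edgeR's quasi-likelihood test. A single fit of all 12 libraries gave the same log2 fold change but an adjusted p of 0.0993 in edgeR, and so no call.

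KRT8, the type II partner of KRT18, was at 314, 267 and 286 CPM with DMSO and at 401, 409 and 396 CPM with AG-205 in HEC-1A cells, again without overlap. Its log2 fold change of 0.48 (SE 0.0924, 95% interval 0.28 to 0.68) was 1.39-fold, with an adjusted p of 0.0058 in edgeR, so it passed the test for a difference but not the limit on the fold. Leaving out replicate 2 of the DMSO libraries gave an adjusted p of 0.0586 and leaving out replicate 3 gave 0.0554, and fitting all 12 libraries together gave 0.765. KRT18 itself was at 388, 327 and 355 CPM with DMSO and at 394, 343 and 448 CPM with AG-205, and the groups overlapped. Its log2 fold change was 0.15 (95% interval -0.10 to 0.40, adjusted p = 0.449 in edgeR). 

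KRT7, the type II keratin of glandular epithelia, was at 446, 396 and 411 CPM with DMSO and at 502, 440 and 481 CPM with AG-205 in HEC-1A cells, with overlapping groups. Its log2 fold change was 0.18 (95% interval -0.02 to 0.39, adjusted p = 0.246 in edgeR). KRT80 was at 192, 207 and 202 CPM with DMSO and at 196, 196 and 161 CPM with AG-205, with a log2 fold change of -0.12 (95% interval -0.33 to 0.09, adjusted p = 0.483 in edgeR). Both intervals lie inside the fold limit. KRT17, at 1, 1 and 2 counts with AG-205, and KRT81, at 9, 11 and 3 counts, did not pass the filter on low counts in HEC-1A cells, and no difference could be detected for them at this depth.

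Of the 5 tested keratins other than KRT19, KRT15 and KRT8 had every AG-205 library above every DMSO library in HEC-1A cells, and none lay wholly below. Over all genes tested in this line, 16.4% lay wholly above and 15% wholly below. Beside KRT8 and KRT19, the summed level of the 10 epithelial markers was also higher with AG-205, at 1850 to 2050 CPM. CLDN4, a tight junction claudin, was the 1 marker called by edgeR of 8 tested, from 302 to 703 CPM on average (log2 fold change 1.22, SE 0.109, adjusted p = 1.37e-05 in edgeR). CLDN4 made up most of the higher sum, while EPCAM (-0.10), ST14 (0.00), SPINT1 (0.05) and CDH1 (0.07) had log2 fold changes near 0. Below the fold limit, PRSS8 (0.72, adjusted p = 0.00093 in edgeR), CLDN7 (0.50, adjusted p = 0.00937 in edgeR) and CLDN3 (0.42, adjusted p = 0.0135 in edgeR) also passed the test as higher. DESeq2 called 2 of the markers higher. The part of these markers in the keratin values was not tested.

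AG-205 addition to T-HESC cells gave another picture among the keratins. KRT19 was again higher by description, KRT18 and KRT80 were lower in every library with AG-205 than in any with DMSO, and the other 5 keratins overlapped between the groups. No keratin other than KRT19 was called by edgeR, in either direction, among the 7 tested. Among these 7, 2 had an unadjusted p under 0.05 (KRT18 and KRT80), DESeq2 called 0, and limma with library quality weights, a fit added after the data were seen, called those 2 lower. Over all 13753 genes tested, edgeR called 0.08% higher and 0% lower, so few genes of any kind were called in this line.

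KRT19 was at 110, 106 and 103 CPM in T-HESC libraries with DMSO and at 249, 177 and 237 CPM in those with AG-205. All 3 AG-205 libraries were above all DMSO libraries, and replicate 2 was the lowest of them. The difference with AG-205 was 1.05 on the log2 scale (SE 0.227, 95% interval 0.52 to 1.57), or 2.07-fold, just past the log2 limit of 1 used here for other genes. These, too, are values the gene was picked by. The log2 fold change lay between 0.94 and 1.16 when single libraries were left out, and under that limit without AG-205 replicate 1 (0.94) or 3 (0.99). The keratins next below the limit in T-HESC cells were KRT17, at 0.59, and KRT15, at 0.49. KRT17 rests on few counts and lay between 0.12 and 1.31 with single libraries left out, the highest value being without DMSO replicate 2.

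KRT18, the type I partner of KRT8, was at 188, 165 and 111 CPM in T-HESC libraries with DMSO and at 99.3, 25.9 and 42.7 CPM in those with AG-205. The groups did not overlap, but the highest AG-205 library (replicate 1) was close to the lowest DMSO library (replicate 3). The log2 fold change was -1.47 (SE 0.491, 95% interval -2.60 to -0.34), or 2.77-fold lower, with an unadjusted p of 0.0172 and an adjusted p of 0.664 in edgeR's quasi-likelihood test. It became a call without AG-205 replicate 1 (log2 fold change -2.20, adjusted p = 0.0341 in edgeR). It was also called with no filter on low counts (-1.52, adjusted p = 0.00148 in edgeR), whereas DESeq2 gave -1.49 with an adjusted p of 0.138.

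KRT80 was at 10.3, 9.78 and 12.2 CPM in T-HESC libraries with DMSO and at 1.65, 4.59 and 5.26 CPM in those with AG-205. Here the groups were well apart, with replicate 1 the lowest of the AG-205 libraries. On the log2 scale KRT80 differed by -1.50 (SE 0.415, 95% interval -2.46 to -0.54), or 2.83-fold lower, with an unadjusted p of 0.00686 and an adjusted p of 0.483 in edgeR. It was called in a joint fit of all 12 libraries (-1.48, adjusted p = 0.0337 in edgeR) and with no filter (-1.50, adjusted p = 0.0308 in edgeR), but not by DESeq2 (adjusted p = 0.108). The stromal marker sum in these AG-205 libraries was lowest in replicate 1 and highest in replicate 3, and its part in the KRT18 and KRT80 values was not tested.

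The remaining keratins of T-HESC cells did not differ beyond the spread of their libraries. KRT8 was at 41.3, 35 and 21.6 CPM with DMSO and at 34.8, 14.4 and 29.2 CPM with AG-205 (log2 fold change -0.33, SE 0.385, adjusted p = 0.993 in edgeR). KRT7 was at 6.10, 6.38 and 3.49 CPM with DMSO and at 6.49, 1.81 and 5.60 CPM with AG-205, and KRT81 was at 6.48, 3.23 and 3.99 CPM against 6.68, 1.66 and 3.56 CPM. In all 3 of these type II genes AG-205 replicate 2 was the lowest library. The log2 fold change was -0.22 for KRT7 (SE 0.503) and -0.22 for KRT81 (SE 0.534), and its sign turned without that library, to 0.15 and 0.13. For KRT81 it also turned without DMSO replicate 1, to 0.12. KRT15 was at 3.84, 3.73 and 3.59 CPM against 6.95, 5.34 and 3.48 CPM, and KRT17 at 4, 14 and 5 counts against 17, 7 and 11 counts (log2 fold change 0.59, SE 0.659, adjusted p = 0.993 in edgeR).

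By the ranges of the libraries, 0 of the 7 keratins tested in T-HESC cells lay wholly above and 2 wholly below their DMSO libraries. Over all genes tested in this line, 6.23% lay wholly above and 4.81% wholly below.

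**Figure D2:**
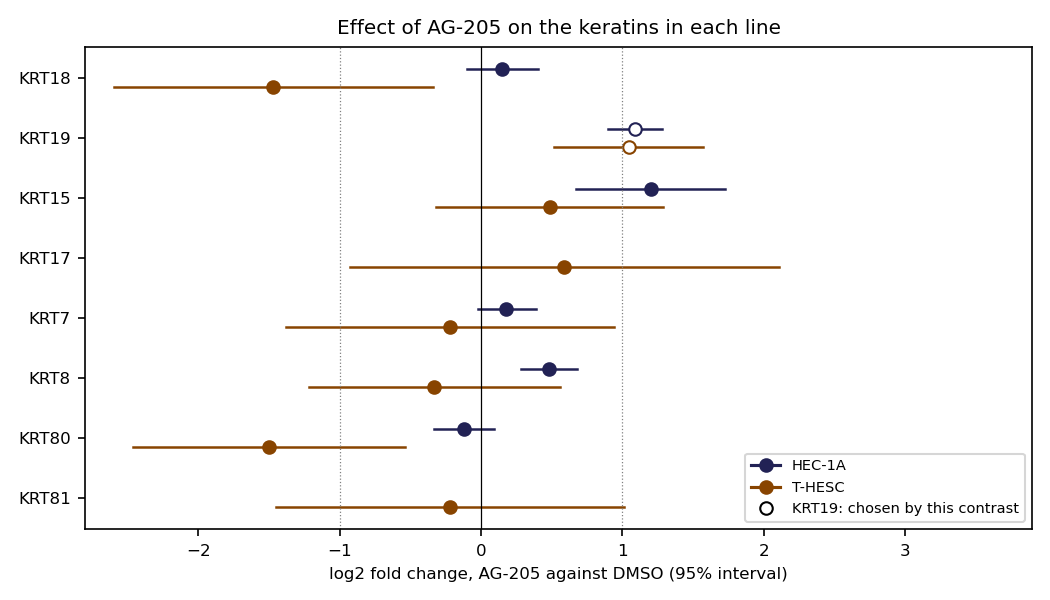
Log2 fold change of each keratin with AG-205 against DMSO (x axis, dotted lines at the limit of 1 in either direction), with the 95% interval of the edgeR fit, in HEC-1A (dark blue) and T-HESC cells (brown), with KRT19 as open points because it was picked by these contrasts. KRT19 lies near 1 in both lines, the point values of KRT18 and KRT80 lie below -1 in T-HESC cells, and KRT17 and KRT81 have no HEC-1A value because their counts were too low.

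Whether the response to AG-205 differed between the lines was tested by the interaction of line and treatment over all 12 libraries. Of the 6 keratins tested, KRT19 aside, 0 were called by edgeR in either direction and 0 by DESeq2, and 2 had an unadjusted p under 0.05 in edgeR. Over all 16132 genes tested, 0.0434% were called higher and 0.13% lower, a difference here being the T-HESC minus the HEC-1A log2 fold change. The difference was -1.61 for KRT18 (SE 0.532, 95% interval -2.77 to -0.46, adjusted p = 0.536 in edgeR) and -1.36 for KRT80 (SE 0.398, 95% interval -2.22 to -0.49, adjusted p = 0.416 in edgeR). Without T-HESC AG-205 replicate 1, KRT18 was called, at -2.32 (adjusted p = 0.00601 in edgeR), and with no filter on low counts both were called, at -1.61 and -1.32.

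The difference for KRT8 was -0.80 (95% interval -1.69 to 0.08, adjusted p = 0.84 in edgeR), for KRT15 -0.71 (95% interval -1.56 to 0.14) and for KRT7 -0.40 (95% interval -1.45 to 0.64). KRT81, which entered the test through its T-HESC counts and had 0 to 11 counts in HEC-1A libraries, had the widest interval, -3.61 to 0.66. For KRT19 the difference was -0.03 (95% interval -0.49 to 0.43), given as a description.

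The balance of type I and type II chains, of interest because filaments need both, was followed as the sum of CPM per kb over the 4 genes of each type. In HEC-1A cells the ratio of type I to type II was 0.7, 0.675 and 0.697 with DMSO and 0.747, 0.729 and 0.833 with AG-205. In T-HESC cells it was 6.52, 7.06 and 7.96 with DMSO and 9.31, 13.3 and 8.86 with AG-205. Type I RNA thus exceeded type II RNA in T-HESC cells and not in HEC-1A cells, except that the HEC-1A ratio with AG-205 was 1.01 when lengths were taken over the union of exons. In both lines the libraries with AG-205 lay above those with DMSO, but this rested on KRT19, the gene picked for being higher with AG-205. With KRT19 left out of the sums, the T-HESC ratios would lie lower with AG-205 than with DMSO. The HEC-1A groups would then overlap. The sum over all 8 keratins was 749 to 850 CPM per kb with DMSO and 953 to 1030 with AG-205 in HEC-1A cells, and 215 ± 37.6 and 223 ± 60.6 in T-HESC cells (SD, n = 3 each). With 3 libraries against 3, an exact permutation test cannot give a two-sided p below 0.1, so no p is given for these sums and ratios, and those that hold KRT19 include the value it was picked by.

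**Figure D3:**
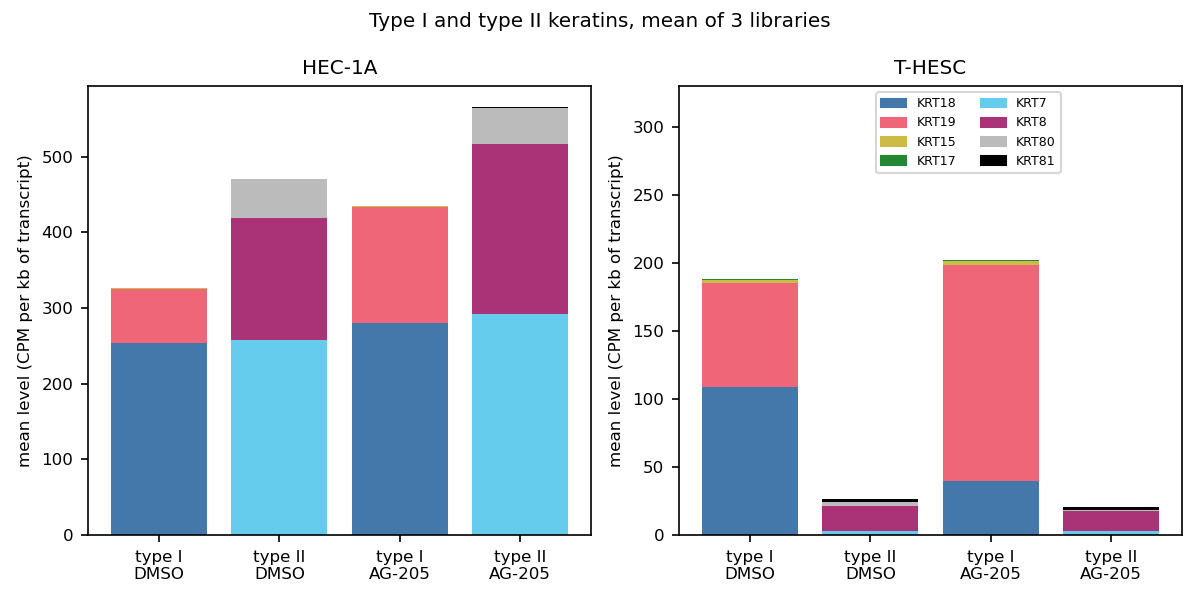
Mean level over 3 libraries (CPM per kb of canonical transcript, linear axes from 0 that differ between the panels) of the type I and type II keratins, stacked by gene, with DMSO and AG-205 in HEC-1A (left) and T-HESC cells (right). In T-HESC cells the type I bar keeps a similar height while KRT19 takes the place of KRT18 as its larger portion, and the type II bars stand at 26.7 and 20.6 CPM per kb.

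Within the 4 listed type I chains KRT19 held a larger share with AG-205 in both lines. KRT19 made up 21.3, 23 and 22.3% of type I CPM per kb in HEC-1A libraries with DMSO and 35.9, 39 and 31.5% in those with AG-205. In T-HESC libraries it made up 37, 38.9 and 47.7% with DMSO and 70.4, 85.4 and 83.9% with AG-205. Among the 8 keratins, the order of the levels in T-HESC cells with AG-205 accordingly began with KRT19 (mean 159 CPM per kb). It did not overlap with KRT18 (39.6), whose range overlapped that of KRT8 (14.7). These shares leave out type I keratins outside the list. In T-HESC cells KRT34 was at 67.7 CPM per kb with DMSO and 94.2 with AG-205, and KRT10 at 27.1 and 25.3. The share of KRT19 in all type I RNA was thus smaller than given here.

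The ratio of KRT18 to KRT8 per kb, the basic pair, was lower with AG-205 in both lines. It was 1.56, 1.55 and 1.57 in HEC-1A libraries with DMSO and 1.24, 1.06 and 1.43 in those with AG-205. In T-HESC libraries it was 5.74, 5.95 and 6.5 with DMSO and 3.61, 2.26 and 1.85 with AG-205. The DMSO libraries of each line were tightly grouped, at 1.56 ± 0.01 and 6.06 ± 0.392 (SD, n = 3), and the groups did not overlap in either line. In HEC-1A cells the lower ratio went with a higher KRT8 level, and in T-HESC cells with a lower KRT18 level. This ratio and the KRT19 share were chosen after the values had been seen, and the KRT8 value of T-HESC cells is the one most open to reads from its copies. The ratio is also open to reads that fit both genes, since 23.9% of the KRT18 windows occurred in KRT8 transcripts on either strand.

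**Figure D4:**
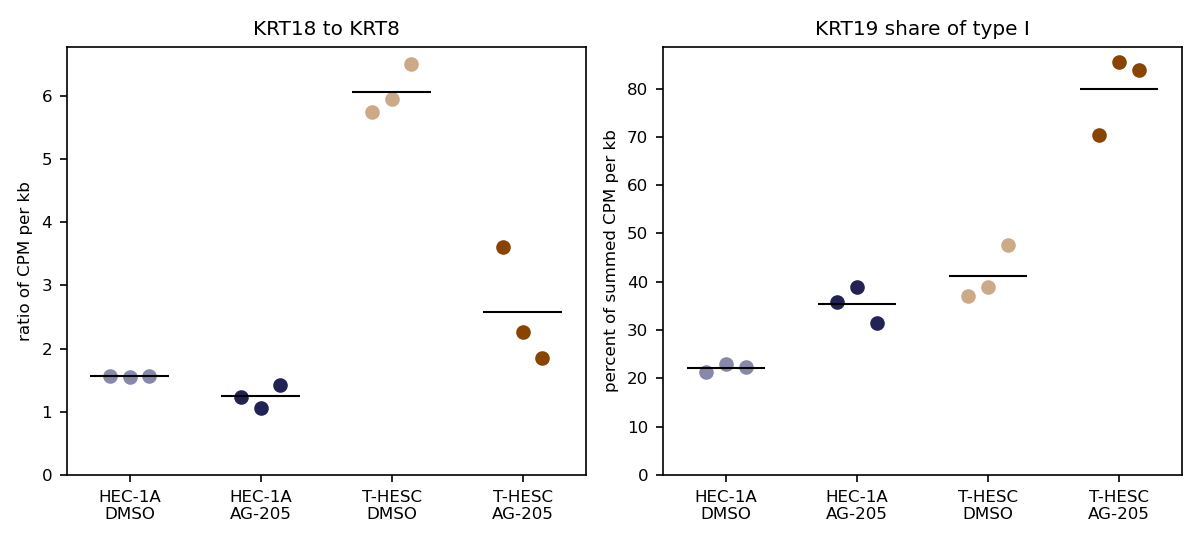
Ratio of KRT18 to KRT8 (left, ratio of CPM per kb) and share of KRT19 in the sum of the 4 listed type I keratins (right, percent of CPM per kb) in the 12 libraries, with 1 point per library and a line at the mean of the group, on axes from 0. With AG-205 the ratio is lower and the share is higher than in every DMSO library of the same line.

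The lines themselves differed in most keratins with DMSO. Of the 8 keratins, 7 were tested, 2 were called higher in T-HESC than in HEC-1A cells (KRT15 and KRT81) and 4 were called lower (KRT7, KRT80, KRT8 and KRT18), while KRT19 did not pass the test. KRT81 entered the test through its T-HESC counts alone. So many genes differed between the lines, 22.3% of the 14789 tested called higher and 22.3% called lower, that a call says little about keratins in particular. This comparison used the same DMSO libraries as the comparisons with AG-205.

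The type II keratins KRT7, KRT80 and KRT8 were all far lower in T-HESC cells. KRT7 was 78-fold lower (418 ± 25.7 against 5.33 ± 1.59 CPM, log2 fold change -6.28, SE 0.205, adjusted p = 2.71e-08 in edgeR) and KRT8 was 8.89-fold lower (289 ± 23.3 against 32.6 ± 10.1 CPM). KRT80 was 18.8-fold lower (192 to 207 against 9.78 to 12.2 CPM, log2 fold change -4.23, SE 0.117, adjusted p = 1.38e-08 in edgeR). KRT18, the type I partner of KRT8, was 2.32-fold lower (357 ± 30.7 against 155 ± 39.4 CPM, log2 fold change -1.22, adjusted p = 0.000305 in edgeR). Without T-HESC DMSO replicate 3, the library with the lowest KRT18 level of that group, the log2 fold change of KRT18 was -0.99 and no longer past the fold limit.

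KRT19 was at nearly the same level in both lines with DMSO, 96.7 to 104 CPM in HEC-1A and 103 to 110 CPM in T-HESC cells, and the libraries overlapped. The log2 fold change was 0.07 (95% interval -0.12 to 0.26, adjusted p = 0.457 in edgeR). With AG-205 the levels were 213 ± 7.95 and 221 ± 38.6 CPM (SD, n = 3 each). A keratin used as an epithelial marker was therefore as abundant in the fibroblastic line as in the epithelial line, within the interval given. EPCAM was at 243 ± 12.9 CPM in HEC-1A cells and under 1 CPM in T-HESC cells, but not every epithelial marker followed it. Of the 9 tested, edgeR called 8 lower in T-HESC cells and 1 higher, beside 22.3% of all genes in each direction. MUC1 was at 0.311 ± 0.142 CPM in HEC-1A and 5.57 ± 2.75 CPM in T-HESC cells with DMSO.

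The sparse keratins ran the other way. KRT15 was 2.75-fold higher in T-HESC cells (1.34 ± 0.0618 against 3.72 ± 0.123 CPM, log2 fold change 1.46, SE 0.214, adjusted p = 0.000284 in edgeR), and with the AG-205 libraries in place of the DMSO libraries it was not called (0.76, adjusted p = 0.0979 in edgeR). KRT81 was higher in T-HESC cells (86, 39 and 40 counts against 0, 4 and 5 counts, log2 fold change 4.12), but the size of that difference rests on a group near 0 and lay between 3.53 and 4.72 with single libraries left out, and 38.4% of its 50-base windows also occurred in the hair keratin KRT86. KRT17 did not pass the filter. Its 3 T-HESC libraries with DMSO held 23 counts in all against 3 in HEC-1A cells, a depth-adjusted ratio of 7.77 with a counting interval of 2.35 to 40.4. With AG-205 the T-HESC libraries held 35 against 4, a ratio of 8.88 (3.17 to 34.4). The copies of KRT17 held 3, 7 and 7 counts in HEC-1A libraries with DMSO and 10, 7 and 3 with AG-205, more than KRT17 itself. In T-HESC libraries these copies held 0 or 1 count each. Both ratios thus depend on how reads were divided between KRT17 and its copies, which the counting intervals do not cover.

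The other keratins of the genome added few expressed genes. Of 47 further keratin genes, 2 were tested in HEC-1A cells and 5 in T-HESC cells for the response to AG-205, and 0 were called in either line by edgeR or DESeq2, with 1 and 0 at an unadjusted p under 0.05. KRT23, a type I keratin, was at 2.93 CPM on average with DMSO and 5.66 CPM with AG-205 in HEC-1A cells (log2 fold change 0.95, SE 0.215, adjusted p = 0.0142 in edgeR), just under the fold limit. KRT34, a type I hair keratin, had 0 or 1 count in each HEC-1A library with DMSO and 1740, 1178 and 1035 counts in the T-HESC libraries, where its level of 67.7 ± 10.9 CPM per kb (SD, n = 3) stood beside that of KRT19. With AG-205 KRT34 was at 1095, 1375 and 3047 counts in T-HESC cells (log2 fold change 0.46, SE 0.387, adjusted p = 0.993 in edgeR). KRT10, a keratin of the upper epidermis, was at 67 CPM in HEC-1A and 58.1 CPM in T-HESC cells with DMSO and did not pass the test between them (log2 fold change -0.22, adjusted p = 0.161 in edgeR).

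Genes that work with keratins also differed between the lines, and few passed the test with AG-205. Desmosomes anchor keratin filaments at cell contacts, and plakins such as PLEC link filaments to membranes and other fibres. Of 17 desmosome and linker genes, 14 were tested between the lines, 4 were called higher in T-HESC cells (DSP, PERP, PLEC and DST) and 8 lower, beside the 22.3% of all genes called in each direction. Of those 8, DSC2 and PKP2 had 0 counts in each T-HESC library with DMSO and DSG2, EVPL and PPL had at most 7, so they were tested only through HEC-1A cells. DSP, the plakin that joins keratins to the desmosome, was at 46 ± 5.24 CPM in HEC-1A and 534 ± 152 CPM in T-HESC cells with DMSO. JUP, the plakoglobin that binds it, went the opposite way, from 175 ± 8.52 to 17.9 ± 11 CPM. With AG-205 edgeR and DESeq2 called 0 of the 14 genes tested in the epithelial line and 0 of the 9 tested in the fibroblastic line, with 5 and 1 at an unadjusted p under 0.05. Below the fold limit, PPL, another plakin, passed the test as lower in HEC-1A cells (log2 fold change -0.77, adjusted p = 0.00484 in edgeR) and PERP, a desmosomal membrane protein, as higher (0.50, adjusted p = 0.00421 in edgeR).

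Among 14 other intermediate filament genes, VIM, the vimentin of mesenchymal cells, was at 1.90 ± 0.731 CPM in HEC-1A and 4190 ± 925 CPM in T-HESC cells with DMSO. In all, 8 of the 14 were tested between the lines, with 5 called higher in T-HESC cells (VIM, NES, LMNA, SYNC and INA) and 1 lower (LMNB1), beside 22.3% of all genes in each direction. SYNC and INA had 0 to 3 counts in HEC-1A libraries with DMSO and were tested only through T-HESC cells. With AG-205 edgeR and DESeq2 called 0 in each line, of 7 tested in the epithelial and 8 in the fibroblastic one, with 5 and 1 at an unadjusted p under 0.05. Below the fold limit, LMNB1 (log2 fold change -0.39, adjusted p = 0.0155 in edgeR) and LMNB2 (-0.47, adjusted p = 0.0201 in edgeR) passed the test as lower in HEC-1A cells. LMNA (0.25), NES (0.56) and PRPH (1.04) had positive values there and did not pass after adjustment. Of 14 transcription and splicing factors that maintain epithelial gene expression, 11 were tested between the lines. GRHL1, GRHL2, ELF3, EHF, OVOL2, ESRP1 and ESRP2 had 0 to 5 counts in each T-HESC library with DMSO and entered the test only through HEC-1A cells, so no count or median of the list is given. TFAP2C was called higher in T-HESC cells (log2 fold change 2.85). ESRP1, an epithelial splicing regulator, was at 93 ± 2.75 CPM in HEC-1A cells and had 0 or 1 count in each T-HESC library with DMSO, and ELF3, an epithelial transcription factor, was at 17.9 ± 1.56 CPM against 2 to 4 counts. KLF5, by contrast, was at 66 ± 3.05 CPM in HEC-1A and 49.9 ± 8.36 CPM in T-HESC cells and was not past the fold limit (log2 fold change -0.41). With AG-205 0 of these factors were called by edgeR or DESeq2 in either line, with 2 and 1 at an unadjusted p under 0.05.

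The genes whose pattern over the 12 libraries was closest to that of 3 keratins were found as those with the smallest root mean square difference of centred log2 CPM among 16132 genes. For KRT19 they included RNF145 (0.147), TMEM53 (0.228), LINC02976 (0.262) and GOLGA4-AS1 (0.27). For KRT8 they were ACP6 (0.282), RDH13 (0.291), KRT7-AS (0.316), FAM78B (0.332) and VASH2 (0.345), of which KRT7-AS overlaps exons of KRT7 on the opposite strand. For KRT18 they were NARF-AS2 (0.373), CFD (0.437), HOXA5 (0.445), TMCC1-DT (0.451) and FOXD4 (0.458). Between the keratins themselves the difference was 0.903 for KRT8 and KRT18, 1.53 for KRT19 and KRT18 and 1.93 for KRT19 and KRT8. The genes named are the closest of all by construction, so these larger values say nothing about keratins in particular. For KRT19 the ranking also includes the AG-205 values it was picked by.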

How the data were processed

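Total RNA of 3 independent culture experiments was sequenced after poly(A) selection. Per the study's methods and the submitters' processing notes, reads were trimmed with Trimmomatic 0.38, aligned to GRCh38 with HISAT2 2.1.0 and counted per gene with featureCounts of Subread 2.0.0, and the authors deposited the raw counts. Strand and multi-mapping settings are not given in the sources used here. Counts were tested with edgeR 4.0.16 (TMM, filterByExpr, quasi-likelihood test, R 4.3.3), within each line, with an interaction over all 12 libraries and between the lines with DMSO, and p-values were adjusted over all genes tested. Gene positions, lengths and sequences were read from GENCODE 44 and its genome. Alternatives were DESeq2 1.42.0, RLE factors, no filter, all libraries in 1 fit, no fold limit, a replicate block, single libraries left out and, added after the data were seen, limma 3.58.1 quality weights and exon-union lengths. The fits were tested on simulated data, where recovery of most planted changes was required of every comparison except AG-205 in T-HESC cells. Figures used matplotlib 3.10.9 (Python 3.11.15). All 8 keratins were named, and of each other list at most 6 members by mean level, beside genes that were called or that bear on a sentence, which were chosen after their values were seen. Members and lists were chosen with earlier results of these data known. Intervals of counts cover counting error only. Some sequences and 1 gene are not reported here.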

Additional observations from a re-analysis of the deposited data

How the results depend on the processing

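Of 363 alternative values of single keratins, 345 kept their direction and their call or, for KRT19 with AG-205, which has no test, moved by less than the spread between libraries (for its difference between lines, less than the SE). The count of keratins called in HEC-1A cells, 1 (KRT15), became 0 with all 12 libraries in 1 fit and 2 with no limit on the fold. In T-HESC cells the count of 0 became 2 with no filter on low counts, 1 with all 12 libraries in 1 fit, 2 with limma quality weights (KRT18 at -2.46, adjusted p = 0.00142, and KRT80 at -1.22, adjusted p = 0.0298) and 0 to 1 with single libraries left out. For the difference between the lines in response, the count of 0 became 2 with no filter and 0 to 1 with single libraries left out. Between the lines with DMSO the count of 6 ranged from 5 to 6 with single libraries left out, and was 7 with DESeq2 or no filter and 5 with the AG-205 libraries. The sign turned for KRT17 in T-HESC cells with quality weights (-0.19), for KRT7 without AG-205 replicate 2 (0.15, range over single libraries left out -0.57 to 0.15), for KRT81 without DMSO replicate 1 (0.12) or AG-205 replicate 2 (0.13, range -0.84 to 0.13), and for the KRT19 difference between lines without T-HESC AG-205 replicate 2 (0.09, range -0.12 to 0.09). KRT19 in T-HESC cells was 0.81 with quality weights. With exon-union lengths, the type I to type II ratio was 0.828 (DMSO) and 1.01 (AG-205) in HEC-1A and 8.93 and 15.3 in T-HESC cells. The cause of these shifts was not tested, except that leaving out libraries leaves fewer samples. Libraries with the same replicate number did not deviate together (correlations -0.08, 0.23 and 0 in HEC-1A, 0.22, -0.53 and -0.04 in T-HESC cells), so the numbers were not taken as pairs. Across numbers, T-HESC correlations reached 0.69 (AG-205 replicate 2 with DMSO replicate 3) and 0.44 (AG-205 replicate 1 with DMSO replicate 2). Pairing under other numbers was not tested, and a block by replicate number cannot account for it. A replicate block gave keratin counts of 1, 0, 0 and 6 in the 4 comparisons, the same as without it, while the calls over all genes for the difference between lines went from 28 to 0. Depth limits KRT17 and, in HEC-1A cells, KRT81.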

Other observations

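Some keratins of stratified epithelia and hair were read at a few counts in T-HESC cells, and unevenly between libraries of the same group. KRT4, an oesophageal keratin, had 35, 23 and 1 counts in the 3 DMSO libraries and 0, 0 and 4 counts in the AG-205 libraries. KRT33B, a hair keratin, had 24, 19 and 1 counts with DMSO and 8, 8 and 17 with AG-205, and KRT38 had 15, 13 and 3 counts with DMSO and 4, 1 and 13 with AG-205. KRT14, the basal epidermal partner of KRT5, had 4, 7 and 14 counts with DMSO and 1, 1 and 3 with AG-205. For KRT4, KRT33B and KRT38, DMSO replicate 3 was the lowest of its group and AG-205 replicate 3 the highest. These genes were chosen after their values were seen.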
